A study of Mus musculus with 18 samples.

Results

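The genes of MHC class I antigen presentation and of the immunoproteasome were followed in the mouse carotid artery through 28 days after wire injury. They are 10 of the 35655 genes in the count table, chosen by symbol: H2-K1, H2-D1, B2m, Tap1, Tap2, Tapbp, Psmb8, Psmb9, Psmb10 and Psme1. In wire injury a guide wire is drawn through the vessel, which strips its endothelium and leads to a neointima, the new layer that grows inside the elastic lamina. Arteries of WT mice of the strain C57/BL6, which were young adult males per the study's methods, gave 4 libraries before injury (day 0). After injury there were 4 libraries each for days 7 and 21 and 3 each for days 14 and 28. No other treatment or allele is given for any group. Sections that held the outer elastic lamina and the neointima were cut out by laser and pooled per sample. The methods do not say separately what was cut on day 0, before injury and its neointima. Comparisons against day 0 may therefore also differ in the tissue cut. The study injured the left carotid, used the right one as control and removed thrombosed vessels. Each library carries a mouse number, and 3 of the 4 day 0 numbers recur on day 21, so that whether day 0 vessels are the uninjured side of injured mice cannot be told from the labels.

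RNA was read by MACE, which sequences the 3′ ends of transcripts, and PCR duplicates were then removed from the reads by molecular barcodes. The 18 libraries held 440675 to 878310 estimated counts, with a median of 659166. Of all genes, 10312 passed a filter on low counts and were tested, the 10 genes among them. Values are given as CPM, counts per 1000000 of a library's TMM-scaled total over the genes tested. Days were compared with edgeR's quasi-likelihood test in 1 fit over all libraries, and a gene counts as called where its p, adjusted by Benjamini and Hochberg's method for all 10312 genes, is under 0.05. Log2 fold changes are of the later day over the earlier one and are given ± their standard error (SE). Day 14 replicate 2 stood apart from the other 2 libraries of its day in most of these genes, and the values of day 14 against day 0 without it are given beside those with it. The libraries of day 0 are shared by 4 of the 7 comparisons, so these are not independent of each other.

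MHC class I molecules show peptides from inside the cell to CD8 T cells and are found on nearly all nucleated cells. The proteasome cuts proteins into peptides, the TAP transporter carries them into the endoplasmic reticulum, and the loading complex places them on a heavy chain paired with beta-2 microglobulin. Interferon gamma is known to exchange the catalytic subunits of the proteasome for the inducible ones of the immunoproteasome, and myeloid cells carry high levels of the latter at rest.

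In these libraries 7 of the 10 genes were higher on day 7 than on day 0, where 11.3% of all genes tested were called higher. These were the heavy chains H2-K1 and H2-D1, their partner B2m, the transporter subunit Tap1 and all catalytic subunits of the immunoproteasome, Psmb8, Psmb9 and Psmb10, with folds from 1.82 for B2m to 6.32 for Tap1. Each of the 7 had all 4 day 7 libraries above all 4 day 0 libraries. How many of all genes tested lay apart in this way was not counted, here or in the later comparisons. Without day 7 replicate 2 the count of calls was 4, those of H2-K1, Tap1, Psmb8 and Psmb10. Tap2, the other subunit of the transporter, Tapbp (tapasin) and Psme1, a subunit of the PA28 activator of the proteasome, were not called. The median log2 fold change of the 10 genes was 1.11, against 0.0705 over all genes tested. Smooth muscle markers fell and leukocyte markers rose on the same day, as given further on, and in pooled tissue more cells of a type and more RNA per cell cannot be told apart.

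**Figure D1:**
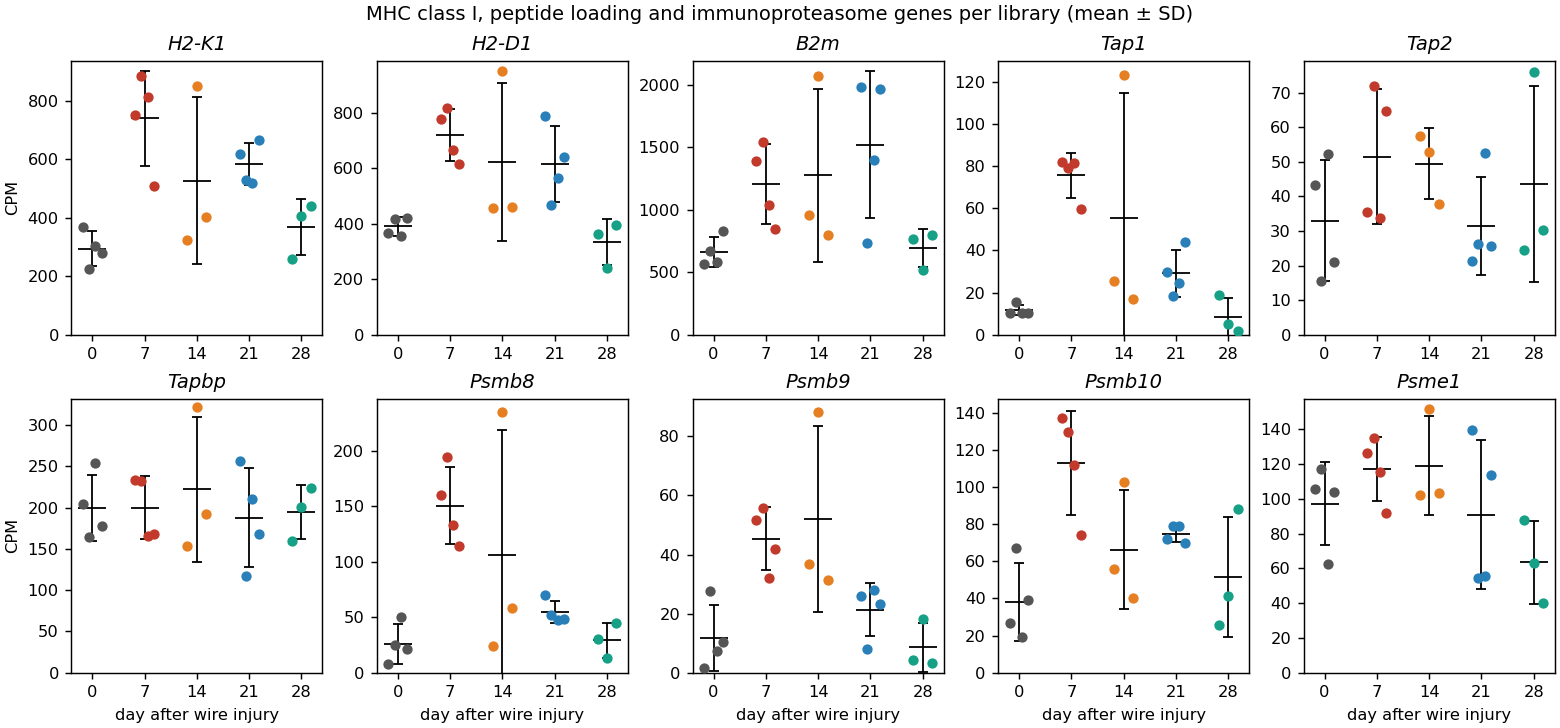
Level of each of the 10 genes in CPM (vertical axis, linear, from 0) against the day after wire injury, with 1 point per library and the mean and SD of each day as a cross bar and error bar, which is cut off where it would pass below 0. In 7 panels the day 7 points lie clear above the day 0 points, and 1 day 14 library, replicate 2, stands above the other 2 of its day in 9 of the 10 panels.

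Of the 10 genes, 7 lie in the MHC on chromosome 17 (GRCm39, GENCODE M39). Tapbp spans 34134873 to 34148267 and H2-K1 34214987 to 34219321, and they are followed by a cluster of Psmb9 (34400960 to 34406738), Tap1 (34405996 to 34416199), Psmb8 (34416690 to 34420428) and Tap2 (34422501 to 34435829). H2-D1 lies further along, at 35481691 to 35486475. B2m is on chromosome 2 (121977957 to 121983594), Psmb10 on chromosome 8 (106662362 to 106665077) and Psme1 on chromosome 14 (55815190 to 55822034). Psmb9 and Tap1 are read in opposite directions and share 743 bases of annotated exon. Whether reads were counted by strand is not stated, so reads of that stretch cannot be told apart. The stretch lies where both annotated genes begin, while MACE reads 3′ ends, and how many reads fell in it was not counted. The heavy chains are close copies of each other and of the H2-Q genes. Stretches of 31 bases were taken from the last 350 bases of their annotated transcripts. Of these, 29.4% for H2-K1 and 26.3% for H2-D1 also occur at any place in another gene's transcripts, not only at the end. How the counts were divided between such copies is uncertain. The share of such stretches was 17% for Psme1, with the genes Gm7776 and Gm46496, 6.88% for Tap1, with Tap2, and 6.71% for Tapbp, with Zbtb22. It was 0.662% for Tap2 and 0 for B2m, Psmb8, Psmb9 and Psmb10. Tapbp shares 923 bases of exon with Zbtb22 on the same strand.

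The stretches upstream of H2-K1, H2-D1 and B2m and the one between Psmb9 and Tap1 are shown because interferon regulatory factors and NF-kappaB are known to act on class I promoters. RefSeq's promoter table (GRCm38.p6) held 9 of the 10 genes, without Tap2, and its first entry was used for H2-K1. The 250 bases before each start were searched on both strands for the interferon-stimulated response element, spelled GAAANNGAAA, for its core AANNGAAA, which every match of the longer motif also holds, and for the kappaB consensus. Of 32851 mouse promoters of that length, 2.98% held the first, 21.3% the second and 3.9% the third. Of the 9 genes B2m alone held the response element, at 139 to 130 bases before its start, and a kappaB match on the reverse strand. H2-K1 and H2-D1 each held a kappaB match and a core match on the reverse strand. Tap1, Tapbp, Psmb8, Psmb9, Psmb10 and Psme1 held none of these letters in this window. Psmb9 and Tap1 start from 1 stretch of 225 bases between them (chr17:34187331-34187555), shown on the strand of Tap1. B2m is from chr2:122147437-122147686 and H2-D1 from chr17:35262844-35263093, both on the forward strand, and H2-K1 is from chr17:34000348-34000597 on the reverse strand. All are written 5′ to 3′, with matches in capitals.
Psmb9-Tap1: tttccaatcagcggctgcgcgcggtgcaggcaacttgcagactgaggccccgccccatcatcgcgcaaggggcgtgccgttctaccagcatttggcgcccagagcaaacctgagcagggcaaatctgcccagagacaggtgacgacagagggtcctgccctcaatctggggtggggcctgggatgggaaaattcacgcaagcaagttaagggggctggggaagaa
B2m: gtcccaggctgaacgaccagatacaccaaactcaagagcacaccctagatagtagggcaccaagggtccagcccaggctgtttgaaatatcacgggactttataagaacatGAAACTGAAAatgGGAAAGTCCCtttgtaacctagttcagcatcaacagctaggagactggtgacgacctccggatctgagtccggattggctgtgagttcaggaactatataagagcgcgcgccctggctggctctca
H2-K1: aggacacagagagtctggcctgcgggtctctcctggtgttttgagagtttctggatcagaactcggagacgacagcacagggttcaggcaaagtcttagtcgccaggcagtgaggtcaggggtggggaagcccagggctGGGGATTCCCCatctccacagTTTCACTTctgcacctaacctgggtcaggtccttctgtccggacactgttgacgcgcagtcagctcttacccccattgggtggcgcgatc
H2-D1: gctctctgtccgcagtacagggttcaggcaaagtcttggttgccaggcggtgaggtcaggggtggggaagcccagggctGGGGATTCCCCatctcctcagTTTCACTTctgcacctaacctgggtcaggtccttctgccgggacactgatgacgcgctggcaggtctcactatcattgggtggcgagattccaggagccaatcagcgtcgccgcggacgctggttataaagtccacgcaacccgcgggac
The 2 heavy chain stretches could be aligned over 177 columns, of which 91% were identical, with a longest identical run of 47 bases. A match of letters is a description of the sequence and shows no binding.

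H2-K1, a classical heavy chain, stood at 369, 224, 304 and 279.5 CPM in the day 0 libraries and at 751, 884, 813 and 510.2 on day 7. It then measured 323, 852 and 403 on day 14, 619.8, 531, 518 and 668 on day 21 and 260, 407 and 441 on day 28. Day 7 and day 21 lay wholly above day 0, and the other days overlapped it. The means of days 0 and 7 were 294 ± 60.4 and 739.8 ± 162 CPM (SD, n = 4 each), and edgeR gave a rise of 1.33 ± 0.27 (SE, adjusted p = 0.000954) on the log2 scale. On day 21 it was higher than on day 0 by 0.99 ± 0.27 (SE, adjusted p = 0.0225) from edgeR, a call that was lost on leaving out any 1 of 5 libraries (day 0 replicates 2, 3 and 4 and day 21 replicates 1 and 4, largest adjusted p = 0.0801 without day 0 replicate 2, smallest over all alternatives 0.00392). On day 14 the log2 fold change was 0.84 ± 0.29 (SE, adjusted p = 0.0942), and on day 28 it was 0.33 with a 95% interval of -0.27 to 0.93, neither of them called by edgeR. The day 14 value was 0.30 without replicate 2 of that day (adjusted p = 0.857), and edgeR called it without replicate 1 (1.10, adjusted p = 0.023) and with no filter on low counts (adjusted p = 0.0396).

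H2-D1, the other classical heavy chain of this strain, had 366, 418, 358 and 419.9 CPM on day 0 and 778, 818, 668 and 617 on day 7. The later days gave 456, 951 and 459 (day 14), 790.1, 466, 564 and 642 (day 21) and 365, 239.8 and 396 (day 28). The day 0 libraries lay close together, and every library of days 7, 14 and 21 was above all of them. Day 7 was higher by 0.88 ± 0.25 (SE, adjusted p = 0.0115) on the log2 scale from edgeR, a call lost without day 7 replicate 2 (adjusted p = 0.0526, range over all alternatives 0.00298 to 0.0526). The values for day 14, 0.67 ± 0.26 (SE, adjusted p = 0.153), and day 21, 0.66 ± 0.25 (SE, adjusted p = 0.0975), were not called by edgeR in spite of the groups lying apart, and the day 14 value was 0.22 without replicate 2 of that day (adjusted p = 0.904). On day 28 the gene was at 334 ± 82.8 CPM (SD, n = 3), with a log2 fold change of -0.23 against day 0 and an interval of -0.78 to 0.32.

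B2m, the invariant light chain that every class I heavy chain needs to reach the surface, measured 566, 667, 579.8 and 832 CPM on day 0 and 1391, 1542, 1041 and 846 on day 7. On day 14 it was at 958, 2068 and 799.8, on day 21 at 1982, 737, 1399 and 1966 and on day 28 at 767, 518 and 799. Its highest mean was on day 21, 1521 ± 589 CPM (SD, n = 4), where 3 libraries were far above day 0 and replicate 2 lay within it. The rise was 1.20 ± 0.30 (SE, adjusted p = 0.0134) on day 21 and 0.87 ± 0.30 (SE, adjusted p = 0.0447) on day 7, both log2 fold changes called by edgeR. The day 7 call was close to the threshold and was lost in 10 of the 18 fits that left out 1 library and with the replicate number as a block (adjusted p = 0.061). The largest adjusted p was 0.178, without day 7 replicate 2, and the smallest over all alternatives 0.00444. Leaving out replicate 1 or 4 of day 21 ended the day 21 call (adjusted p = 0.0546 and 0.0577), and the smallest was 4.71e-05. Day 14 was not called, with 0.95 ± 0.32 (SE, adjusted p = 0.0875) from edgeR. It was 0.40 without replicate 2 of that day (adjusted p = 0.787), and edgeR called it without replicate 3 (1.19, adjusted p = 0.0486) and with no filter on low counts (adjusted p = 0.00597). The means of days 21, 14 and 7 did not differ beyond their spread, and nor did those of days 28 and 0.

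Tap1 and Tap2 form the transporter that moves peptides into the endoplasmic reticulum. Tap1 was low on day 0, with 10.4, 15.5, 10.4 and 10.5 CPM, and reached 81.9, 79.1, 81.7 and 59.7 on day 7. It was at 25.6, 124 and 17 on day 14, 29.6, 18.2, 24.7 and 44.2 on day 21 and 18.7, 4.96 and 1.6 on day 28. Every library of days 7, 14 and 21 was above day 0, but on day 14 one library carried most of the mean. The log2 fold change against day 0 was 2.66 ± 0.58 (SE, adjusted p = 0.00165) on day 7 from edgeR, and that call held in all 26 alternatives. It was 2.20 ± 0.61 (SE, adjusted p = 0.0281) on day 14, a call lost without day 14 replicate 2, where the log2 fold change was 0.82 (adjusted p = 0.762, with 0.00286 to 0.762 across the alternatives), and without day 0 replicate 1, 3 or 4 (adjusted p = 0.0607, 0.0686 and 0.0696). The call was also lost with the replicate number as a block (adjusted p = 0.0752), with only the 2 days in the fit (adjusted p = 0.0657) and in limma-voom (adjusted p = 0.195). Day 21 was not called, with 1.28 ± 0.59 (SE, adjusted p = 0.197) from edgeR.

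Tap2 varied as much within days as between them, with 43.2, 15.5, 52.2 and 21 CPM on day 0 and 35.6, 71.9, 33.9 and 64.6 on day 7. The later days gave 57.6, 52.9 and 37.8 (day 14), 21.3, 26.2, 52.6 and 25.6 (day 21) and 24.4, 76.1 and 30.4 (day 28). All later days overlapped day 0. No comparison of Tap2 was called, and the 95% interval of its log2 fold change on day 7 ran from -0.30 to 1.61, which leaves room for a rise of up to that size. Tapbp, the chaperone that bridges heavy chain and transporter, had the same mean of 199.6 CPM on days 0 and 7, with SDs of 39.6 and 38.0 (n = 4 each). Its libraries ranged from 117 CPM in day 21 replicate 2 to 321 in day 14 replicate 2, and the interval of the day 7 log2 fold change was -0.56 to 0.56.

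Psmb8, the inducible subunit with chymotrypsin-like activity, had 7.44, 25.1, 50.7 and 21 CPM on day 0 and 160.3, 194, 134 and 115 on day 7. The later days gave 24, 235 and 58.7 (day 14), 69.8, 52.5, 47.7 and 48.9 (day 21) and 30.2, 13.2 and 44.7 (day 28). The day 7 libraries were at least 2 times as high as any of day 0. The log2 fold change was 2.53 ± 0.53 (SE, adjusted p = 0.00115) on day 7 and 2.01 ± 0.55 (SE, adjusted p = 0.0279) on day 14, both called by edgeR. On day 14 the groups overlapped, and without replicate 2 of that day edgeR gave a log2 fold change of 0.67 and an adjusted p of 0.779 (4.69e-05 to 0.779 across the alternatives). It was 0.0806, 0.0712 and 0.0783 without day 0 replicate 1, 2 or 4. That call was also lost with the replicate block (adjusted p = 0.0923), with only the 2 days in the fit (adjusted p = 0.0971) and in limma-voom with the mouse number as a block (adjusted p = 0.131). On days 21 and 28 the changes were 1.08 (adjusted p = 0.239) and 0.18 (adjusted p = 0.928 from edgeR).

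Psmb9, the inducible subunit that takes the place of the caspase-like one, was near the lower end of what these libraries resolve, with 1.49, 27.5, 7.45 and 10.5 CPM on day 0, which were 1 to 23 counts. It had 51.6, 55.7, 31.9 and 42 on day 7, followed by 36.8, 88.2 and 31.3 (day 14), 26, 8.07, 28 and 23.3 (day 21) and 4.31, 18.2 and 3.2 (day 28). Days 7 and 14 lay wholly above day 0. The rise on day 7 was 1.9 ± 0.63 (SE, adjusted p = 0.0328) from edgeR. That call did not hold in 5 alternatives (largest adjusted p = 0.0914 without day 7 replicate 2, smallest 0.00693). On day 14 the larger value of 2.09 ± 0.66 (SE, adjusted p = 0.057) was not called by edgeR. It was called in DESeq2 (adjusted p = 0.0216), with no filter on low counts (adjusted p = 0.0185), in limma-voom with the mouse number as a block (adjusted p = 0.0376) and without day 0 replicate 2 (adjusted p = 0.0166), day 28 replicate 2 (adjusted p = 0.0347) or day 28 replicate 3 (adjusted p = 0.0437). Without day 14 replicate 2 the log2 fold change was 1.485 (adjusted p = 0.47). Psmb10, the inducible subunit with trypsin-like activity, measured 26.8, 67, 19.4 and 39.4 CPM on day 0 and 137, 129, 112 and 74.3 on day 7. The later days gave 56, 102 and 40.5 (day 14), 72.2, 78.7, 78.9 and 69.8 (day 21) and 25.9, 41.4 and 87.9 (day 28). Days 7 and 21 lay above day 0, and the day 21 libraries were the closest together of any day. Day 7 was higher by 1.55 ± 0.40 (SE, adjusted p = 0.00625) on the log2 scale, and day 21 by 0.96 ± 0.40 (SE, adjusted p = 0.146) without a call from edgeR. On day 14 it was 0.77 ± 0.43 (SE, adjusted p = 0.396) from edgeR, and 0.31 without replicate 2 of that day (adjusted p = 0.93).

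Psme1 encodes the alpha subunit of PA28, which caps the proteasome and is known as interferon-inducible. It had 62.6 to 117 CPM on day 0 and 92 to 135 on day 7, with 102 to 152 on day 14, 54.5 to 139.6 on day 21 and 40 to 87.6 on day 28. The days overlapped throughout against day 0. The log2 fold change was 0.27 ± 0.32 (SE, adjusted p = 0.648) on day 7 and -0.61 ± 0.36 (SE, adjusted p = 0.439) on day 28 from edgeR, and neither was called. Annotated exons of Psme1 share 2192 bases with Emc9 on the other strand. Psme2, the beta subunit of the same cap, ranged from 0 to 110 counts in the 4 day 0 libraries, and its log2 fold change on day 7 of -0.23 ± 0.93 (SE, adjusted p = 0.905) carries that spread.

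Days 14, 21 and 28 were also read as a whole for the 10 genes. On day 14, 2 were called higher, Tap1 and Psmb8, where 4.8% of all genes tested were called higher, and the median of the 10 was 0.805 against 0.0462 over all genes. Without day 14 replicate 2, 0 of the 10 were called by edgeR and 0 passed an unadjusted p under 0.05, the median was 0.355 and 1.96% of all genes tested were called higher. Tap2, Tapbp and Psme1 had log2 fold changes of 0.52, -0.22 and 0.068 without it, in place of 0.59, 0.15 and 0.29, and edgeR called none of these. At an unadjusted p under 0.05, 6 of the 10 passed in the full fit, and how many of all genes did so was not counted. DESeq2 called 3 of the 10, and 860 of the 10312 genes tested in either direction. On day 21, 2 were called, H2-K1 and B2m, against 5.92% of all genes, with a median of 0.896 against 0.0675. Leaving out day 21 replicate 1 or replicate 4 gave 0 calls, and leaving out day 0 replicate 2, 3 or 4 gave 1. On day 28, 0 of the 10 were called by edgeR, where 0.97% of all genes were called higher. None passed an unadjusted p under 0.05 in edgeR or DESeq2, and the median was 0.0169. The 95% intervals of the log2 fold change on day 28 were wide for the low genes, -1.88 to 0.98 for Tap1 and -2.02 to 1.03 for Psmb9, and narrower for H2-K1 and H2-D1.

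**Figure D2:**
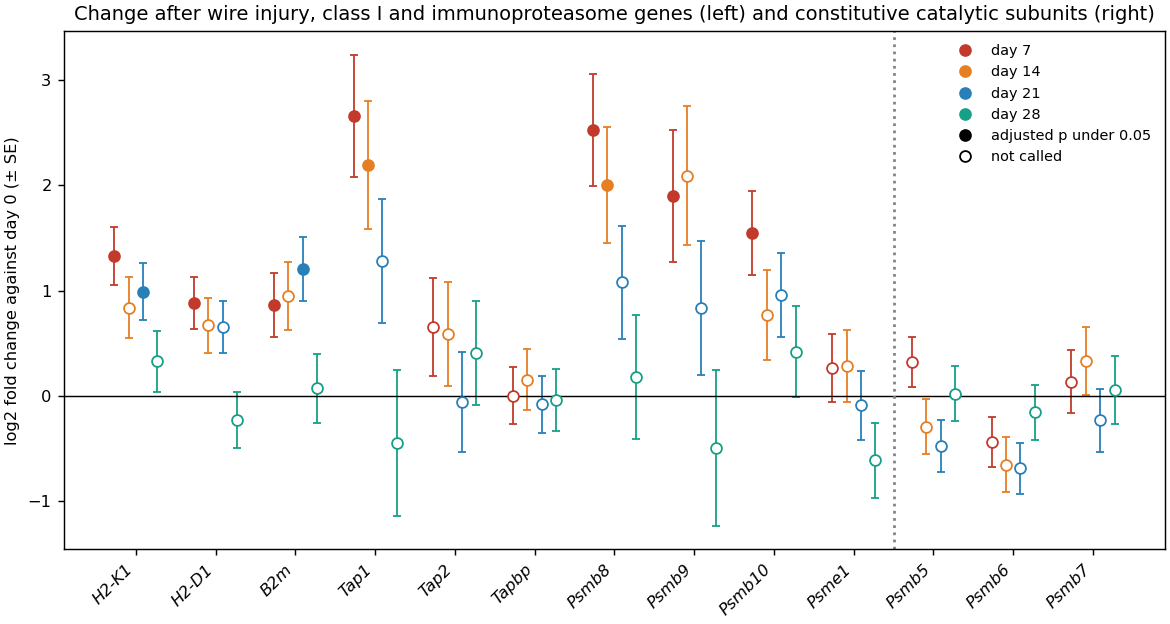
Log2 fold change against day 0 (vertical axis) for the 10 genes and, right of the dotted line, the 3 constitutive catalytic subunits Psmb5, Psmb6 and Psmb7, with 1 point per later day, the standard error as bars, filled where the adjusted p was under 0.05. Among the 10 genes, 7 points are filled for day 7, 2 each for days 14 and 21 and 0 for day 28, and none is right of the line.

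The later days were set directly against day 7. On day 28, 5 of the 10 genes were lower than on day 7, where 8.05% of all genes tested were called lower, and the median was -1.06 against -0.067. Tap1 changed by -3.11 ± 0.68 (SE, adjusted p = 0.00307) with libraries of 18.7, 4.96 and 1.6 CPM on day 28, or 1 to 13 counts, so the size of this change is uncertain. The log2 fold changes of the others were -2.40 for Psmb9 (adjusted p = 0.0284), -2.35 for Psmb8 (adjusted p = 0.00826), -1.11 for H2-D1 (adjusted p = 0.00711) and -1.0 for H2-K1 (adjusted p = 0.0242, all edgeR). For all 5 every day 28 library was below every day 7 library. The call of H2-K1 was lost in 5 fits that left out 1 library (largest adjusted p = 0.115 without day 28 replicate 1) and with only the 2 days in the fit (adjusted p = 0.0552). That of Psmb9 was lost in 4 fits (largest adjusted p = 0.108 without day 28 replicate 3). Without day 28 replicate 2 the calls of H2-D1 (adjusted p = 0.0528) and Psmb8 (adjusted p = 0.0517) were lost too, and 2 genes were called in place of 5. The count was 3 without day 7 replicate 1, day 7 replicate 2 or day 28 replicate 1. B2m and Psme1 also lay wholly below day 7 with log2 fold changes of -0.79 and -0.88, and were not called. On day 14, 0 of the 10 were lower than on day 7 (0.33% of all genes), none passed an unadjusted p under 0.05 in edgeR and DESeq2 called 0. On day 21, 0 were called (3.23% of all genes) by edgeR and by DESeq2, while Psmb8 and Tap1 passed an unadjusted p under 0.05 in edgeR, with -1.45 ± 0.51 (SE, adjusted p = 0.0855) and -1.38 ± 0.55 (SE, adjusted p = 0.142). All 4 day 21 libraries of Psmb8, Tap1 and Psmb9 were below all of day 7, although these changes were not called.

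The inducible subunits Psmb8, Psmb9 and Psmb10 replace Psmb5, Psmb6 and Psmb7 in the core of the proteasome, and the ratio of each pair within a library hardly depends on how libraries are scaled. Ratios were taken as log2 of counts plus 1. That of Psmb8 to Psmb5 was -4.36 to -2.08 in the day 0 libraries and -0.97 to -0.42 on day 7, a difference of 2.39 between the means. That of Psmb9 to Psmb6 was -6.78 to -3.16 on day 0 and -2.16 to -1.58 on day 7, a difference of 2.63. For Psmb10 to Psmb7 the values were -2.38 to -1.04 and -0.42 to 0.28, a difference of 1.52. In each pair all day 7 libraries lay above all of day 0. The exact two-sided permutation test gave p = 0.0286 for each, the smallest that 4 against 4 allow, and an adjusted p of 0.0686 over the 12 comparisons, so that none was past the threshold. On day 21 the differences were 1.8, 1.77 and 1.25, with the second pair overlapping day 0 (exact permutation p = 0.0286, 0.0571 and 0.0286). On day 14 they were 1.95, 2.91 and 0.43, and only the second pair lay wholly above day 0 (exact permutation p = 0.0857, 0.0571 and 0.543). Without day 14 replicate 2 they were 0.94, 2.47 and -0.11, and the third turned its sign (exact permutation p = 0.333, 0.133 and 0.933, where 2 against 4 cannot go below 0.0667). On day 28 they were 0.30, -0.14 and 0.27, all overlapping day 0. With 5 in place of 1 added to each count, 7 of the 12 had an adjusted p of 0.049. A ratio also rises where its constitutive subunit is lower. On day 21 Psmb5, Psmb6 and Psmb7 summed to 331 to 418 CPM, against 451 to 593 on day 0. Their median log2 fold change there was -0.476, and none was called. Psmb8, Psmb9 and Psmb10 changed by 1.08, 0.835 and 0.96 on day 21, also without a call from edgeR.

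The constitutive subunits were read on their own as well. On days 0 and 7 (SD, n = 4 each) Psmb5 measured 198 ± 15.6 and 248 ± 31.8 CPM, Psmb6 235 ± 72.8 and 173 ± 22.1, and Psmb7 102 ± 34.7 and 113 ± 49.5. Their log2 fold changes on day 7 were 0.32, -0.44 and 0.14, and none of the 3 was called against day 0 on any day by edgeR or DESeq2, with 0 under an unadjusted p of 0.05 on days 7 and 28 and 1 each on days 14 and 21. Psmb7 shares 2817 bases of annotated exon with Nek6 on the other strand. From day 7 to day 21 Psmb5 changed by -0.80 ± 0.25 (SE, adjusted p = 0.0477) from edgeR. Of the 16 other tested genes of the core, its caps, inhibitor and assembly, 0 were called on day 7 by edgeR, 5 passed an unadjusted p under 0.05 and DESeq2 called 2. Their median log2 fold change was 0.358. Those with the smallest p were Psma1 (0.73, adjusted p = 0.0592), Psma7 (0.53, adjusted p = 0.0964), Psmb4 (0.59, adjusted p = 0.111) and Psma3 (0.58, adjusted p = 0.113 from edgeR). On day 21, 6 of the 16 were lower than on day 7, with a median of -0.822 against 0.00513 over all genes, and Psma2 alone was lower than on day 0 on both day 21 (-1.19) and day 28 (-1.09). Psma2 was chosen after its values were seen.

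**Figure D3:**
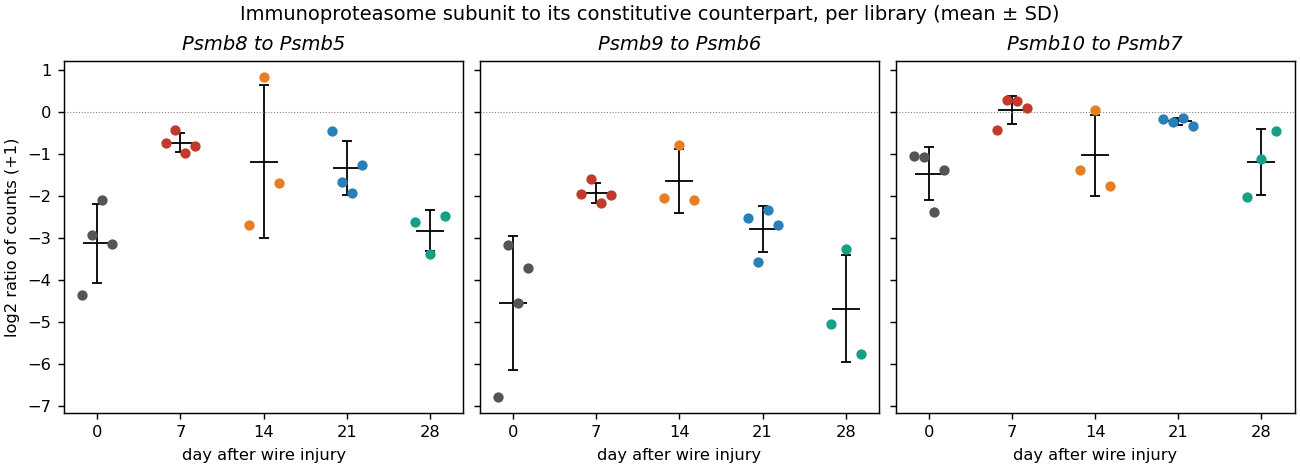
Log2 ratio of the counts (plus 1) of each inducible catalytic subunit to its constitutive counterpart (vertical axis) against the day after injury, with 1 point per library and the mean and SD of each day. The day 7 points of all 3 pairs lie above the day 0 points, and those of day 28 overlap day 0.

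Among 16 other genes of class I and its relatives, 9 were tested and 1 was higher on day 7. This share is near the 11.3% of all genes tested that were called higher. The gene called was H2-Q7, a Qa-2 gene of the Qa region, which went from 5.25 to 33.5 CPM on day 0 to 46.8 to 82.7 on day 7 with a log2 fold change of 2.16 ± 0.62 (SE, adjusted p = 0.0137), and which was higher on day 21 too, by 2.02 ± 0.61 (SE, adjusted p = 0.0395) from edgeR. H2-T22, H2-T23 and H2-M3 had log2 fold changes of 0.87, 0.86 and 1.77 on day 7 and were not called. The median of the 9 was 0.863, and 6 of them had a log2 fold change above 0. Mr1, Fcgrt and H2-Q6 had lower means on day 7 than on day 0. H2-Q6, chosen after its values were seen, had a count in every library of days 0, 7 and 14 and no count on day 28. H2-Q4, H2-Q6 and H2-Q10 hold some of the 31-base stretches of H2-K1, and H2-Q7 some of those of H2-D1. These H2-Q genes share the uncertainty of the heavy chains. Such stretches were not counted for the list itself. Of 7 genes for loading and trimming of peptides, Tapbpl, a peptide editor related to tapasin, rose on day 7 by 1.01 ± 0.28 (SE, adjusted p = 0.0121). Lnpep, an aminopeptidase that trims peptides in endosomes, was lower, with -1.16 ± 0.32 (SE, adjusted p = 0.0108) from edgeR. The chaperones Pdia3 and Canx had log2 fold changes of 0.52 and 0.29 without a call, and the median of the 7 was 0.288.

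Some known regulators of these genes were read on day 7 as well. Irf1, a transcription factor of class I and Tap1, rose by 1.55 ± 0.54 (SE, adjusted p = 0.0444) on the log2 scale with overlapping groups. Ifngr1, a chain of the receptor for interferon gamma, rose by 1.03 ± 0.26 (SE, adjusted p = 0.00516), and Irf8, a factor of the myeloid lineage, by 4.20 ± 0.99 (SE, adjusted p = 0.00303) from edgeR. Ciita, the master regulator of class II, had no count on day 0 and 8 to 20 counts in the day 7 libraries. Its class I counterpart Nlrc5 had no count on day 0, at most 9 in a library of day 7 and no count on day 28, and was too low to be tested. Ifng, the gene of interferon gamma, had at most 7 counts in any library and Ifnb1 none, where a count of 0 allows up to 3 counts in a library.

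Of 23 interferon-stimulated genes 22 were tested, of which day 7 had 13 higher, day 14 had 14, day 21 had 5 and day 28 had 0. The median log2 fold change on day 7 was 2.59, or 2.38 with the 4 genes near 0 on day 0 at their lower bound against 3 counts. Irgm1, a GTPase of interferon-induced defence, rose on day 7 by 2.53 ± 0.46 (SE, adjusted p = 0.000269), the ubiquitin-like Isg15 by 4.40 ± 0.70 (SE, adjusted p = 5.52e-05), Ifi27l2a by 2.65 ± 0.53 (SE, adjusted p = 0.000689) and Irf7, a factor of the type I response, by 5.14 ± 1.05 (SE, adjusted p = 0.000883) from edgeR. Their summed level in day 14 replicate 2 was 5047 CPM, against 865 and 979 in the other 2 libraries of that day and 398 to 485 on day 0. Without that library 1 of the list, Isg15, was called on day 14. The 5 on day 21 were Isg15, Irf7, Ifi27l2a and, chosen after their values were seen, Ifit3 (2.98, adjusted p = 0.0353) and Rsad2 (5.11, adjusted p = 0.0279 from edgeR). On day 28 edgeR called 0, DESeq2 called 2 and 4 passed an unadjusted p under 0.05 in edgeR, and the summed level was 517 to 746 CPM.

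Markers of other cell types moved on the same days. All 17 macrophage markers were higher on day 7, and their summed level was 148 to 585 CPM on day 0, 6099 to 8660 on day 7, 1627 to 3852 on day 14, 2364 to 4030 on day 21 and 1027 to 1409 on day 28. Itgam and Mpeg1 of this list were at 0 in all day 0 libraries. All 6 tested dendritic cell markers, of 9, were higher on day 7, with sums of 48.5 to 619 CPM on day 0 and 1873 to 3779 on day 7. That list and its sum include the class II genes H2-Aa, H2-Ab1 and H2-Eb1 and also Cd74, so it is not made of dendritic cell genes alone. Itgax, Flt3, Batf3 and Cd209a of the list had no count on day 0. The 13 T and NK cell markers summed to 1.31 to 32.3 CPM on day 0 and 55.7 to 106 on day 7, with Cd3d, Nkg7 and Gzmb among the 6 at 0 on day 0. Of these 13, only 1 passed the filter and was tested, with at most 3 counts in any day 0 library. The 4 B cell markers reached at most 21.6 CPM in sum on any day. The 6 neutrophil markers summed to 0 to 2.62 CPM on day 0 and 184 to 678 on day 7, with Ly6g, Mpo and Elane at 0 in both groups. Only 3 of these 6 were tested, each with at most 3 counts in any day 0 library. Smooth muscle markers, which define the tissue, summed to 34160 to 39580 CPM on day 0 and 1693 to 7379 on day 7, where all 9 were lower, and to 21320 to 29850 on day 28. Ptprc, the pan-leukocyte gene, rose on day 7 by 4.16 ± 0.81 (SE, adjusted p = 0.000549) from edgeR. Endothelial markers summed to 788 to 1325 CPM on day 0 and 830 to 2534 on day 7, and fibroblast markers to 1056 to 1958 and 401 to 1606, both with overlapping groups. Of 9 endothelial markers 4 were called higher, Cdh5, Cldn5, Egfl7 and Kdr, and Vwf was called lower, with a log2 fold change of -2.61 ± 0.54 (SE, adjusted p = 0.00107) from edgeR. Of 6 fibroblast markers 3 were called lower, Dpt, Pi16 and Col14a1, and Lum was called higher, with a log2 fold change of 2.24 ± 0.44 (SE, adjusted p = 0.000558) from edgeR. These markers are named after their values were seen. The part of any of these in the levels of the 10 genes was not tested.

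**Figure D4:**
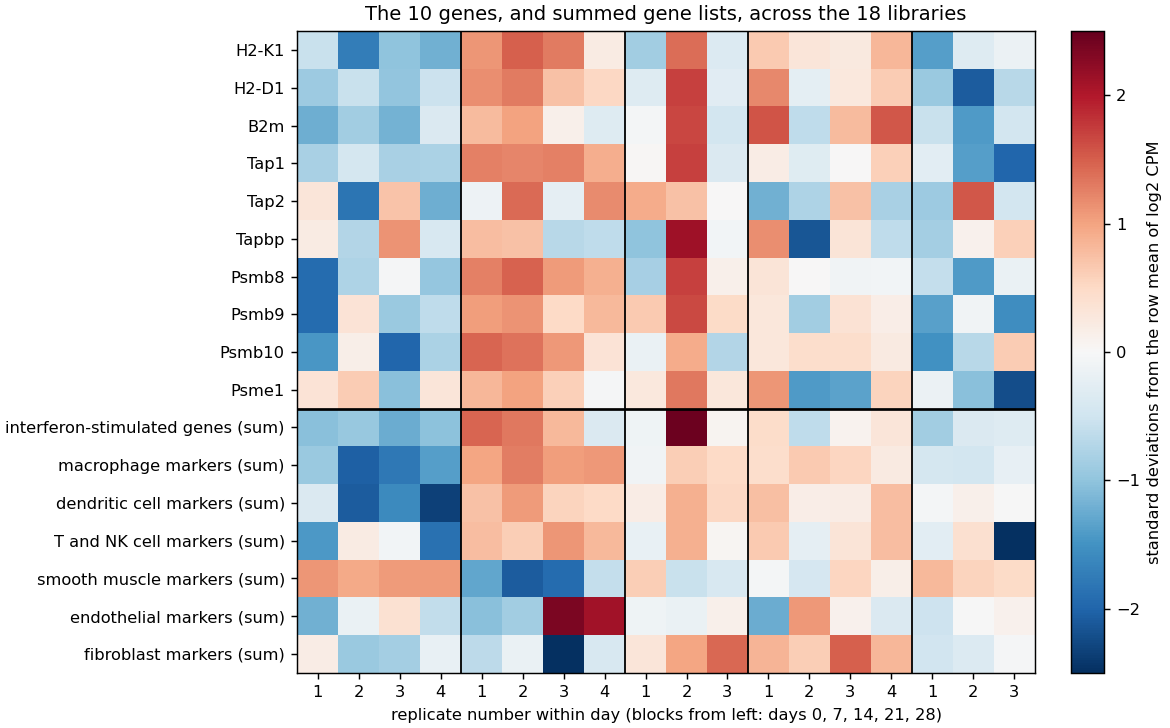
The 10 genes (upper rows) and the summed CPM of lists of interferon-stimulated genes and cell type markers (lower rows) in the 18 libraries, in columns by day and replicate number, each as standard deviations of log2 CPM from its row's mean (red above, blue below). Day 7 columns are red in most of the upper rows and in the leukocyte rows, the smooth muscle row runs the other way, and day 14 replicate 2 is the darkest column for the interferon-stimulated genes.

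The 10 genes shared a pattern to different degrees. Over the 18 libraries the Pearson correlation of log2 CPM between 2 of them had a median of 0.588 over 45 pairs, from -0.109 for Tap2 and Psme1 to 0.891 for H2-D1 and B2m. The latter was 0.909 after the mean of each day was taken out. Most other pairs fell with the day means out, as from 0.792 to 0.436 for Tap1 and Psmb8 and from 0.613 to 0.1 for Tap1 and Psmb10. Some rose, as from 0.401 to 0.655 for B2m and Tapbp. Against the mean standardised profile of the other 9 genes, H2-D1 was nearest (0.906), followed by Tap1 (0.854), Psmb8 (0.831), H2-K1 (0.815), Psmb9 (0.796), B2m (0.788) and Psmb10 (0.686), with Psme1 (0.515), Tapbp (0.375) and Tap2 (0.172) last. These values describe 18 libraries that share their days and their scaling. The mean profile was highest in day 14 replicate 2 (1.5 standard deviations) and day 7 replicate 2 (1.21) and lowest in day 28 replicate 1 (-0.849) and day 0 replicate 1 (-0.796). On day 21 it ran from -0.563 in replicate 2 to 0.558 in replicate 1. Outside the 10, the genes nearest to this profile were Ptafr (0.953), the receptor for platelet-activating factor, the transporter Slc15a3 (0.941), the interferon-induced Ifitm1 (0.928), the endosomal receptor Tlr13 (0.926) and Ms4a4c (0.923). Each was under 2 CPM in the mean of day 0 and between 18.5 and 51.6 CPM in that of day 7.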

How the data were processed

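The deposited table holds estimated counts per gene, which the authors made with Salmon 1.9.0 from de-duplicated MACE reads, with mm39 as the build per the labels. The annotation release is not given in the sources used here. A second deposited table, unit signal, holds the counts that the authors divided by DESeq2 1.36.0 factors, and its further gene-wise factor was between 0.932 and 1.08 for the 10 genes. It served as an alternative. Counts were rounded to whole numbers, filtered by filterByExpr by day, scaled by TMM and tested in edgeR 4.0.16 (R 4.3.3) with a design of 5 days over all 18 libraries. DESeq2 1.42.0 and limma 3.58.1 were alternatives. The genes and lists were chosen with earlier results of these data known. Beyond the 10 genes, Psmb5, Psmb6, Psmb7, Psme2, Nlrc5, Irf1 and Ciita were named, and of each other pathway list the 4 with the smallest p on day 7. Among the regulators, 1 result is not reported here, nor are the counts that hold it. The labels number mice but do not say how many each library pools, so p-values measure the spread between these libraries. No 2 libraries of a day agreed within counting noise. On simulated counts for day 7 against day 0 over 10312 genes, edgeR recovered 47.6% of genes changed 4-fold and 10.5% of those changed 2-fold.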

Additional observations from a re-analysis of the deposited data

Results flagged for a closer look

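Of 39 groups of 4 libraries, of the 10 genes and the 3 subunit ratios, 3 held a library far from the other 3, all of them of genes, where chance gives about 1 in 20 groups. Tap1 was at 15.5 CPM in day 0 replicate 2, with the others between 10.4 and 10.5. It was at 59.7 CPM in day 7 replicate 4, with the others between 79.1 and 81.9. Tap2 was at 52.6 CPM in day 21 replicate 3, with the others between 21.3 and 26.2.

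The change since day 0 differed between day 28 and day 7 for 5 genes, by edgeR's test of day 28 against day 7. Since day 0 is shared, these are the same 5 calls as given above and no further result. Without day 28 replicate 2, 2 of them remained. On the log2 scale the difference was -1.0 for H2-K1, -1.11 for H2-D1, -3.11 for Tap1, -2.35 for Psmb8 and -2.40 for Psmb9, with adjusted p of 0.0242, 0.00711, 0.00307, 0.00826 and 0.0284.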

How the results depend on the processing

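Of 1818 log2 fold changes of the 10 genes recomputed under the alternatives, 1688 kept their direction and their side of the threshold. Tap1 and Psmb9 gave no value on day 28 against day 0 with only the 2 days in the fit, where the filter removed them. In 20 a change passed the threshold that had not, and in 50 a call was lost. The direction turned in 60, for changes that were not called, and the cause was not tested. These were -0.026 for B2m on day 14 against day 7 and 0.075 for Tap2 on day 21 against day 0 in limma-voom with the mouse number as a block. For Tapbp they were -0.0055 on day 7 against day 0 with only the 2 days in the fit, 0.076 on day 28 against day 0 with library totals, and 0.021 and 0.020 on day 28 against day 7 with library totals and with only the 2 days. For Psme1 on day 14 against day 7 they were -0.0021 in DESeq2, -0.0019 with RLE factors and -0.017 with library totals. The others came from leaving out 1 library, and the ranges that follow are of the log2 fold change over all alternatives. Against day 0 on day 28, -0.048 to 0.24 for B2m, -1.78 to 0.015 for Tap1, -0.26 to 0.72 for Tap2, -0.15 to 0.10 for Tapbp, -0.25 to 0.70 for Psmb8, -1.62 to 0.36 for Psmb9 and -0.20 to 0.84 for Psmb10. Against day 7 on day 14, -0.45 to 0.34 for B2m, -0.21 to 0.15 for Tap2, -0.20 to 0.38 for Tapbp, -0.41 to 0.47 for Psmb9 and -0.18 to 0.14 for Psme1. Against day 0 on day 21, -0.46 to 0.25 for Tap2, -0.27 to 0.067 for Tapbp and -0.39 to 0.064 for Psme1. Against day 7 on day 28, -0.92 to 0.078 for Tap2 and -0.13 to 0.12 for Tapbp. Against day 0 on day 7, -0.13 to 0.14 for Tapbp. Against day 0 on day 14, -0.22 to 0.36 for Tapbp. Against day 7 on day 21, -0.27 to 0.11 for Tapbp.

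Of the 10 genes, 7 were called on day 7 against day 0, and 4 to 7 when 1 library was left out. On day 14 it was 0 to 3, on day 21 0 to 2 and on day 28 0. Against day 7 it was 0 on day 14, 0 to 1 on day 21 and 2 to 5 on day 28. On day 14 against day 0, 5 were called without a filter on low counts, 0 with only the 2 days in the fit, 0 with the replicate number as a block and 1, Psmb9, in limma-voom with the mouse number as a block. On day 21 against day 7 the counts were 1 without a filter, 2 with only the 2 days and 1 in limma-voom. Of the 12 ratios, 7 had an adjusted p under 0.05 with 5 added to each count. Libraries with the same replicate number did not deviate together (median r -0.0057 over 33 pairs, from -0.13 to 0.2), so the block shares only a number. In the replicate block 6 genes were called on day 7 and 2 on day 21. Over the whole table, 138 genes were called on day 28 against day 0, and 366 in DESeq2, 363 without a filter, 32 with only the 2 days, 72 with the replicate block and 52 in limma-voom. The 171 of day 14 against day 7 became 292, 392 and 83 under the first 3 of these, and the 1490 of day 28 against day 7 became 922 with only the 2 days. The share of calls that were higher moved by over 10 points with only the 2 days in the fit, from 77.2% to 53.8% on day 14 and from 66.9% to 51.1% on day 21 against day 0, and from 80.1% to 48.2% on day 14 against day 7. In DESeq2 it was 62% on day 28 against day 0, in place of 72.5%, and 68.8% on day 14 against day 7. In limma-voom it was 66.8% and 59.6% on days 14 and 28 against day 0 and 63.3% on day 14 against day 7. The lists on day 14 without replicate 2 were an alternative chosen after seeing the data: of those tested, 1 of 22 interferon-stimulated genes was called (14 with it), 15 of 17 macrophage markers (17 with it) and 4 of 6 dendritic cell markers (6 with it). Depth limits the low genes, since Tap1 and Psmb9 held 1 to 13 counts a library on day 28.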
